A study of Homo sapiens with 3 samples.

Results

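The semaphorin family and its receptors were examined as possible sites of BRG1 occupancy in 12Z cells, an established, immortalised line of human endometriotic epithelial cells. The set comprised all 31 human genes of the SEMA and PLXN families plus NRP1 and NRP2, of 19974 protein-coding genes on chromosomes 1 to 22 and X. Peaks were taken as belonging to a gene when their midpoint lay in the gene body, or within 100 kb of it with no other protein-coding gene nearer. Members were chosen by gene name, but the set was put forward with the shared-peak counts of these data known, so the counts of genes with a peak are a description and carry no test. BRG1 (gene SMARCA4) is a catalytic subunit of SWI/SNF, a complex that slides and evicts nucleosomes. BRG1 had been mapped by ChIP-seq in 2 libraries (replicates 1 and 2), with 1 input library, for which no peak list was at hand. All 3 came from wild-type cells, with no treatment named, fixed in 1% formaldehyde for 10 min, with chromatin digested by micrococcal nuclease before 30 s of sonication. The labels name 1 cell line, 1 antibody and no second condition, and do not say whether the replicates were separate cultures. Agreement between them may therefore be technical.

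Semaphorins are secreted or membrane-bound ligands best known for steering growing axons, and they also act on cell adhesion, migration and vessel growth. Plexins are their transmembrane receptors, and signal through a cytoplasmic GAP domain. Most secreted class 3 semaphorins need a neuropilin as co-receptor, whereas membrane semaphorins of classes 4 to 7 usually bind plexins directly. In endometriosis, class 3 semaphorins have been studied as repellents of sympathetic nerve fibres around lesions.

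The deposited lists held 17399 broad peaks for replicate 1, 10157 for replicate 2 and 6343 in a series-wide overlap list, here called shared peaks. Each peak carries the authors' fold enrichment over background and a −log10 q, both used only within their own list. The median fold of the replicate 1 list was 3.53, that of the replicate 2 list 3.71 and that of the shared list 3.33. Read depth is unknown, and the absence of a peak means only that none was called.

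BRG1 peaks in this family lay mainly at long semaphorin genes, and at SEMA5A and SEMA3C above all. A shared peak was found at 11 of the 31 genes (35.5%), against 9.67% of all protein-coding genes. The 11 were SEMA3A, SEMA3C, SEMA3D, SEMA3E, SEMA4B, SEMA4F, SEMA5A, SEMA6B, SEMA6D, PLXNB2 and NRP1. Together they held 27 shared peaks, 8 at SEMA5A and 6 at SEMA3C. A peak inside the body was found at 8 of the 31 genes, against 5.95% of all. By role, 9 of 20 semaphorins (45.0%), 1 of 9 plexins (11.1%, close to the background) and 1 of 2 neuropilins had a shared peak. The median number of shared peaks per gene was 0 both in the family and over all genes. In the replicate 1 list 16 of the 31 genes had a peak (background 20.2%), and in the replicate 2 list 12 of 31 (background 11.5%).

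**Figure D1:**
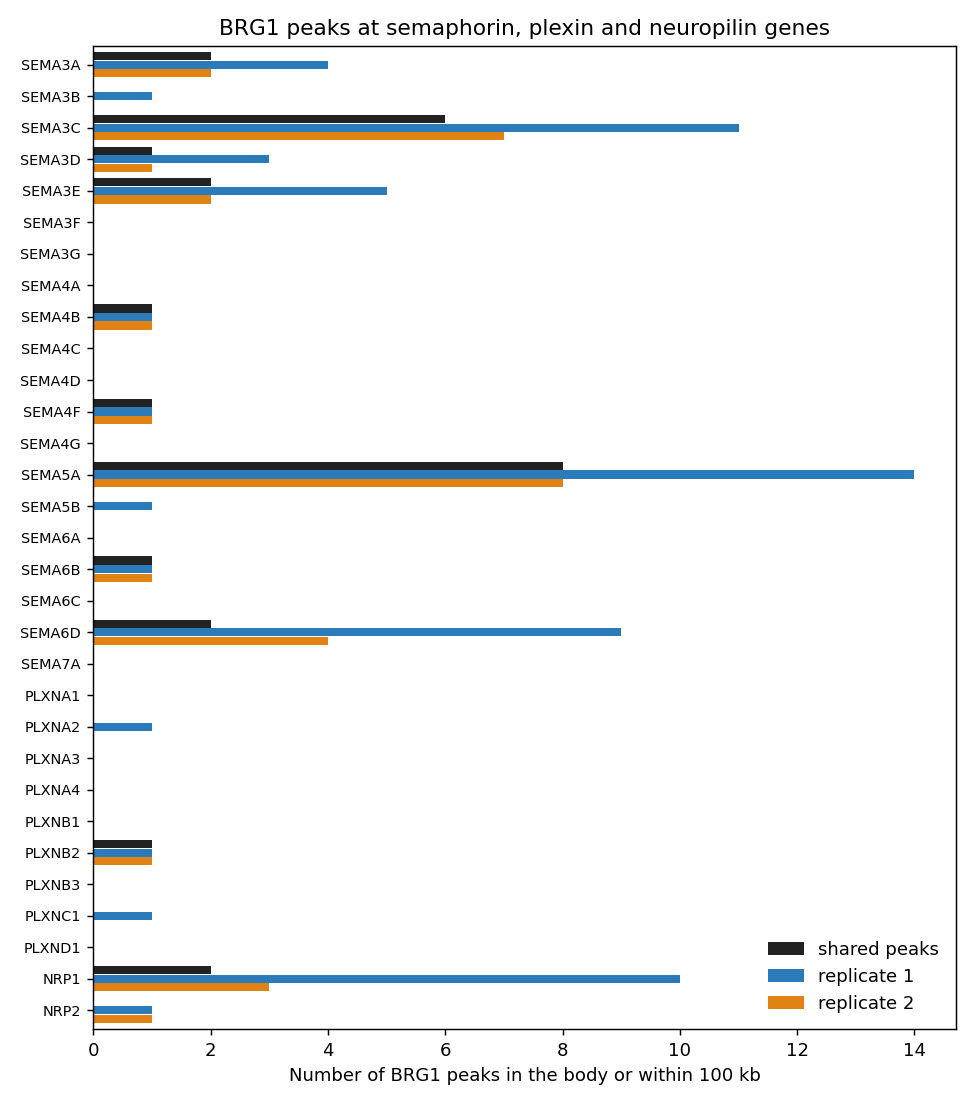
Number of BRG1 peaks (horizontal axis) at each of the 31 genes (vertical axis) in the shared list (black), replicate 1 (blue) and replicate 2 (orange). SEMA5A has 8 shared, 14 replicate 1 and 8 replicate 2 peaks, SEMA3C has 6, 11 and 7, and 15 genes have none in any list.

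Gene length moved with these counts. Among all protein-coding genes a shared peak was found at 5.37% of those with a body under 50 kb, 14.5% of those of 50 to 150 kb and 28.7% of those over 150 kb. Of the 10 family genes over 150 kb, 7 had a shared peak, and these held 23 of the 27 shared peaks. All 6 semaphorins of that length (SEMA3A, SEMA3C, SEMA3D, SEMA3E, SEMA5A and SEMA6D) had a shared peak, as did NRP1. The 3 plexins of that length (PLXNA2, PLXNA4 and PLXNC1) had none, but 3 genes are too few to set against 28.7%. Of the 7 family genes of 50 to 150 kb, 1 had a shared peak (14.3%), close to the background of that class. Of the 14 under 50 kb, 3 had one (21.4%), above the 5.37% of all genes of that class. The part of gene length in the family's count was not tested.

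**Figure D2:**
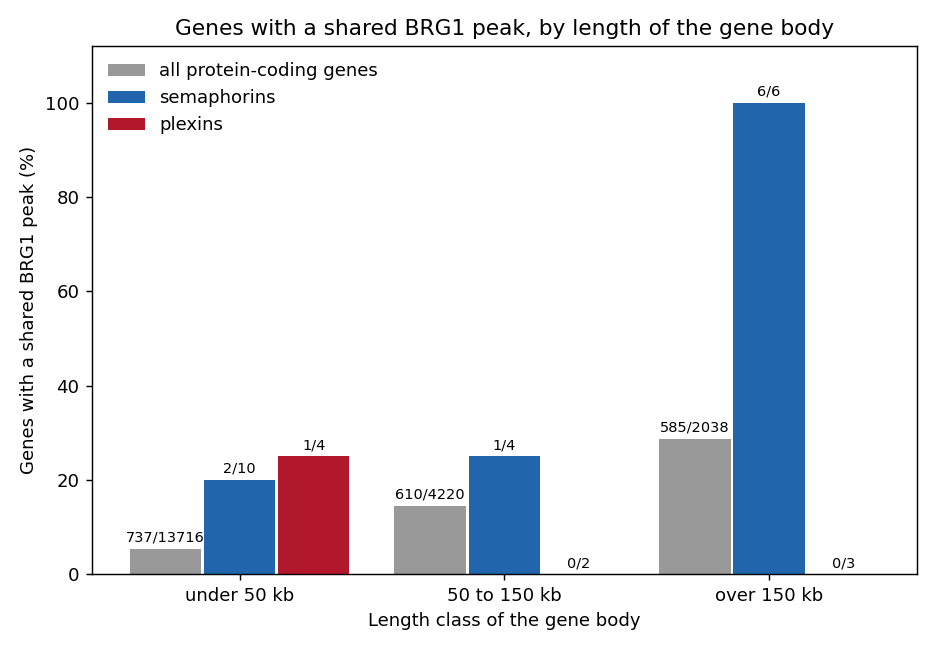
Percent of genes with a shared BRG1 peak (vertical axis, from 0) by length class of the gene body, for all protein-coding genes (grey), semaphorins (blue) and plexins (red), with counts above the bars. In the class over 150 kb, 6 of 6 semaphorins and 0 of 3 plexins have a shared peak, against 28.7% of all genes.

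SEMA3C encodes a secreted semaphorin that signals through neuropilins with plexins and takes part in vessel and heart outflow development. It was the only gene of the family with a BRG1 peak over a listed transcription start. RefSeq (GRCh38.p14) lists starts for 27 of the 31 genes, 48 in all, and the 250 bases before each were compared with the peaks. No start is listed for SEMA3A, SEMA6A, SEMA6B and NRP1, so theirs could not be compared. Of 22132 such windows of protein-coding genes, 0.633% overlapped a shared peak, and in this family 1 of 48 did. The same window was the only one of the 48 under a peak of replicate 1 (background 1.27%) and of replicate 2 (background 0.556%). It belongs to the inner of 2 starts of SEMA3C, which lies inside the body as drawn from the outer start. That window lies wholly inside the shared peak chr7:80918718-80919539 (fold 3.43, −log10 q 2.93). The replicate 1 peak there spanned chr7:80918719-80919540 (fold 3.67) and the replicate 2 peak chr7:80918921-80919245 (fold 3.74). The 250 bases before both SEMA3C starts are shown to contrast a start under a peak with one beside it, and those of SEMA5A as the gene with the most peaks but none at its start. All are from RefSeq GRCh38.p14, minus strand, 5′ to 3′, with matches to the SP/KLF motif GGGCGG (either strand) in capitals.
SEMA3C inner start, chr7:80919052-80919301: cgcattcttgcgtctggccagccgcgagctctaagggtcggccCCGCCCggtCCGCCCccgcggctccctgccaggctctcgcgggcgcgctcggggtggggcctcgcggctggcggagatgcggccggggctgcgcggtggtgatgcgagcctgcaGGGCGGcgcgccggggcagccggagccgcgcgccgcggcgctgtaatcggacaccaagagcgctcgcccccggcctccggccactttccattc
SEMA3C outer start, chr7:80922390-80922639: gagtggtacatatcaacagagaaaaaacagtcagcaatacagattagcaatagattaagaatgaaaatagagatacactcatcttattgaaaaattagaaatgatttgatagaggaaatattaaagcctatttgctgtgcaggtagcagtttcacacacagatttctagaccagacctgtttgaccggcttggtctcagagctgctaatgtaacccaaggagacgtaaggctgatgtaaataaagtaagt
SEMA5A start, chr5:9546076-9546325: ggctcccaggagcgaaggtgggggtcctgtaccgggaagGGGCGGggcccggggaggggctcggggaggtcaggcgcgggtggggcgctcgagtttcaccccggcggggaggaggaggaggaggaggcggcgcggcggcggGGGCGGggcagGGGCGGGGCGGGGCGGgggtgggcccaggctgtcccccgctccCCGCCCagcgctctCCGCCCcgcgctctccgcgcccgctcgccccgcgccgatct

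The window before the inner SEMA3C start is 77.6% G and C and holds 39 CpG dinucleotides and 3 GGGCGG matches. The window before the outer start, whose nearest shared peak ends 2.85 kb downstream, is 36.4% G and C with 2 CpG and 0 matches. The SEMA5A window is 82.0% G and C with 33 CpG and 7 matches, overlapping ones counted separately. Its nearest shared peak lies 11.5 kb upstream, so the start with the most matches of these 3 had no peak over it. GGGCGG was present in 53.7% of all windows and in 30 of the 48 of the family. The AP-1 motif TGANTCA and the TEAD motif GGAATG, also searched on both strands, were in none of the 3 windows. Over the family they were in 1 and 6 of 48 windows, against 5.35% and 10.5% of all.

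The other SEMA3C peaks fell into 3 places. Just 485 bp from the peak over the inner start lay a second one at chr7:80917521-80918232 (fold 3.20, with 3.58 in replicate 1 and 3.78 in replicate 2). Deeper in the gene, 38.0 and 45.3 kb from the 5′ end of the body, lay a pair 5.77 kb apart. The first of these, chr7:80883202-80885570, had a fold of 3.52 (4.01 in replicate 1 and 5.13 in replicate 2). In the second, chr7:80876707-80877434 (fold 3.43, with 4.04 in replicate 1 and 3.87 in replicate 2), the replicate 1 and replicate 2 peaks both overlapped the shared peak but not each other. Beyond the 3′ end, between SEMA3C and CD36, lay chr7:80740793-80741857 (fold 3.19, with 3.46 in replicate 1 and 3.89 in replicate 2), the only shared peak of the family within 3 kb of an end of its gene. It was followed by chr7:80721697-80724313, the SEMA3C peak of highest fold (3.98, with 4.31 in replicate 1 and 4.96 in replicate 2). SEMA3C thus had shared peaks at its inner start, within its body and past its end. Only 51 of the 19974 genes (0.255%) had 6 or more shared peaks, and 1.62% of those over 150 kb. Its body held 22.2 shared peaks per Mb, against 2.75 per Mb in the 2 Mb on either side. The contrast was not particular to SEMA3C, since every family gene with a shared peak in its body had a higher density there. Those genes were picked by a peak in the body, which favours a higher density there. Family genes without one held 0 in the body, against up to 4.75 per Mb on either side (PLXNA4). No such comparison was made over all genes. PLXNB2 had 30.6 per Mb against 0.25, from 1 peak in a short body, and NRP1 had 12.7 against 0.75. At SEMA3A the 2 values were close, 1.86 and 1.5.

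SEMA3E, SEMA3A and SEMA3D follow one another on chromosome 7 with no other protein-coding gene between them, and each had a shared peak. SEMA3A encodes the archetypal growth cone repellent, which binds NRP1. Its shared peak inside the body, chr7:84412073-84413080, had a fold of 4.04 (4.40 in replicate 1 and 4.13 in replicate 2). The other, chr7:84528924-84530184, lay between SEMA3A and SEMA3D, with a fold of 3.78 (4.97 in replicate 1 and 4.28 in replicate 2). That replicate 1 value was the highest of any family peak in its list. SEMA3D had 1 shared peak, chr7:85135121-85136956, 114.0 kb into the body, with a fold of 3.82 (4.64 in replicate 1 and 4.20 in replicate 2). SEMA3E, whose product can bind PLXND1 without a neuropilin, had 2 within its body, at 98.7 and 124.0 kb from the 5′ end. They were chr7:83549782-83551118 (fold 3.25, with 3.69 and 4.05 in replicates 1 and 2) and chr7:83524230-83525429 (fold 3.42, with 4.37 and 3.71). None of the SEMA3D and SEMA3E peaks was near a listed start, the nearest being 50.1 kb away at SEMA3D. Of the other secreted semaphorins, SEMA3B had 1 peak in replicate 1 alone (chr3:50264729-50264988, fold 3.70), and SEMA3F and SEMA3G had none in any list.

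SEMA5A encodes a membrane semaphorin with thrombospondin repeats, for which PLXNB3 has been described as a receptor. With 8 shared peaks it was among the 24 genes (0.12%) that had 8 or more. The share was 0.785% among genes over 150 kb. Inside the body lay 7 of them, in 4 groups. Nearest the 5′ end were chr5:9347894-9349286 and chr5:9349830-9350837, 543 bp apart, at 197.0 and 196.0 kb. The former had a fold of 4.13 (4.61 in replicate 1 and 4.12 in replicate 2) and a −log10 q of 6.13, the only one of the 27 to reach 5. The latter had a fold of 3.01 (3.35 in replicate 1 and 3.72 in replicate 2). Midway along the body were chr5:9268107-9269036 (fold 3.30, with 4.40 and 3.59 in replicates 1 and 2) and chr5:9264889-9267306 (fold 3.38, with 3.88 and 3.84), 800 bp apart. A further 24.9 kb on lay chr5:9238844-9239943 (fold 3.04, with 3.29 and 3.66). Near the 3′ end lay chr5:9059702-9060484 (fold 3.49, with 3.66 and 3.97) and chr5:9046436-9047356 (fold 3.51, with 4.14 and 3.48). The last shared peak, chr5:9557623-9558095 (fold 3.21, with 3.68 and 3.76), lay upstream of the start. The stretch of the body between its 5′ end and the first pair thus held no shared peak. The SEMA5A body held 13.7 shared peaks per Mb, against 2.5 in the 2 Mb on either side, again a contrast not particular to this gene. SEMA5A too was compared because its body holds peaks, which favours a higher density there.

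**Figure D3:**
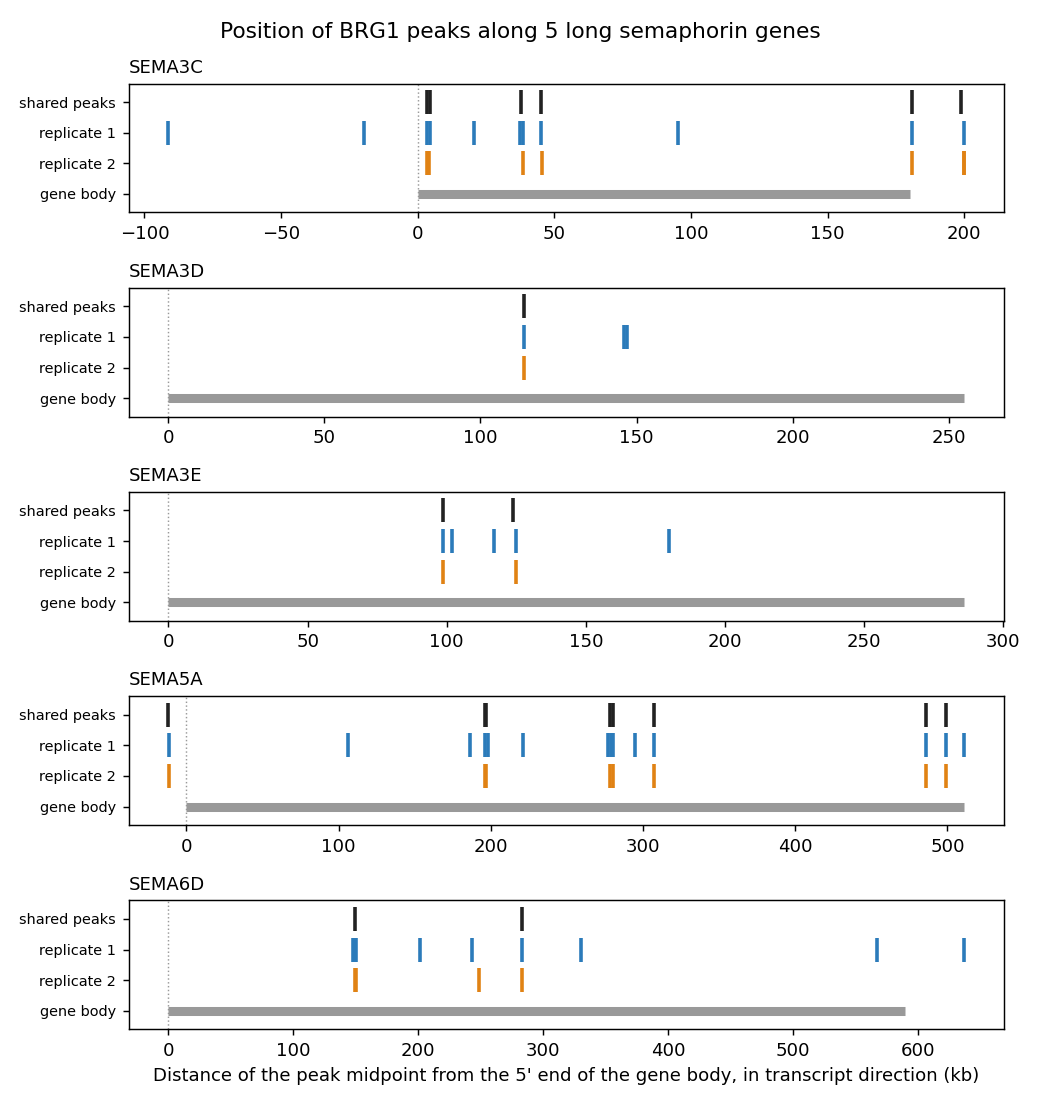
Peak midpoints (ticks) in the shared list (black), replicate 1 (blue) and replicate 2 (orange) along 5 long semaphorin genes, by distance in kb from the 5′ end of the gene body (grey bar), in transcript direction, with a separate scale for each gene. SEMA3C has shared peaks next to its 5′ end, at 3.26 and 4.51 kb, while the first within the SEMA5A body lies at 196.0 kb.

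SEMA6D, a membrane semaphorin for which PLXNA1 is a known receptor, had 2 shared peaks, both in the body. At 149.0 kb from its 5′ end, chr15:47331759-47334198 had a fold of 3.42 and covered 3 separate replicate 1 peaks and 2 of replicate 2, the strongest at folds 4.12 and 4.64. The other, chr15:47466333-47467067, had a fold of 3.48 (3.59 in replicate 1 and 4.14 in replicate 2). SEMA6B and SEMA4B, with bodies under 50 kb, and SEMA4F, with one of 55.2 kb, had their shared peak outside the body. The SEMA6B peak, chr19:4575357-4575760, lay between SEMA6B and TNFAIP8L1 (fold 3.31, with 3.89 and 3.44 in replicates 1 and 2). The SEMA4B peak, chr15:90165505-90166281, lay between IDH2 and SEMA4B, upstream (fold 3.53, with 3.73 and 3.74). The SEMA4F peak, chr2:74740674-74741720, lay between SEMA4F and HK2, downstream (fold 3.32, with 3.83 and 3.70). It also fell within a long non-coding RNA gene, LOC102724497, the only non-coding gene of the table that held a shared peak of the family. Peaks between genes were given to the nearer gene by distance alone. Among the remaining semaphorins, SEMA5B had 1 peak, in replicate 1 alone (chr3:122975439-122975599, fold 3.57). SEMA4A, SEMA4C, SEMA4D (the ligand of PLXNB1), SEMA4G, SEMA6A, SEMA6C and SEMA7A (the ligand of PLXNC1) had none in any list.

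Among the 9 plexins only PLXNB2, a receptor for class 4 semaphorins, had a shared peak. That share (11.1%) was close to the 9.67% of all protein-coding genes. The PLXNB2 peak is described first. It lay inside the body at chr22:50293457-50294221, 7.45 kb downstream of the listed start. Its fold of 2.77 was the lowest of the 27 family peaks, at percentile 14.2 of the shared list, with 3.15 in replicate 1 and 3.34 in replicate 2. PLXNA2 had 1 peak in replicate 1 alone (chr1:208107859-208108262, fold 3.48), as had PLXNC1 (chr12:94173105-94173456, fold 3.57). PLXNA1, PLXNA3, PLXNA4, PLXNB1, PLXNB3 and PLXND1 had no peak in any list. Around PLXNA4 the 2 Mb on either side held 19 shared peaks (4.75 per Mb), the most of any family gene, while its body held none. The ligand and receptor pairs named here showed no common pattern. SEMA3A and NRP1 both had shared peaks, 2 each. PLXNB2 had 1, as had SEMA4B and SEMA4F of class 4, while the other class 4 genes had none. SEMA3E, SEMA5A and SEMA6D had shared peaks and their receptors PLXND1, PLXNB3 and PLXNA1 had none. Neither SEMA4D and PLXNB1 nor SEMA7A and PLXNC1 had any.

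The neuropilins are co-receptors for class 3 semaphorins and for VEGF. NRP1 had 2 shared peaks, both in its body. The first, chr10:33237755-33239372, had a fold of 3.84 (4.24 in replicate 1 and 5.58 in replicate 2). That replicate 2 value was the highest of any family peak in its list, at percentile 99.8, with a −log10 q of 5.55. The other, chr10:33263311-33264742, had a fold of 3.23 (3.62 in replicate 1 and 3.92 in replicate 2). NRP1 was also the gene at which the libraries differed most in number of peaks, with 10 peaks in replicate 1 and 3 in replicate 2. Of these 10, 8 overlapped no shared peak, among them chr10:33291018-33292040 (fold 4.09). Another, chr10:33336974-33337129 (fold 3.50), lay outside the body, within 3 kb of its end on the PARD3 side. No start of NRP1 is listed, so this peak could not be placed against one. NRP2 had 1 peak in each replicate, at different places, chr2:205685405-205685597 in replicate 1 (fold 3.37, 2.90 kb downstream of the listed start) and chr2:205700585-205700899 in replicate 2 (fold 3.89), and no shared peak.

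Most replicate 2 peaks at family genes had a counterpart in replicate 1, and most replicate 1 peaks had none in replicate 2. Of the 32 replicate 2 peaks at family genes, 28 (87.5%) overlapped a replicate 1 peak, against 74.1% of replicate 2 peaks with a protein-coding gene within 100 kb. Of the 65 replicate 1 peaks, 26 (40.0%) overlapped a replicate 2 peak, against 33.0%. Where 50% of both peaks had to overlap, the order turned, with 21.9% against 31.6% for replicate 2 peaks and 10.8% against 14.4% for replicate 1 peaks. All but 2 of the replicate 2 peaks overlapped a shared peak, whereas 34 of the replicate 1 peaks overlapped none. Those 34 lay at the genes with shared peaks in most cases, with 8 at NRP1, 5 each at SEMA5A and SEMA6D and 4 at SEMA3C. Overlap with shared peaks was not counted over all replicate peaks. The libraries differed in the same direction over their whole lists. There, 63.9% of replicate 2 peaks overlapped a replicate 1 peak, and 36.6% of replicate 1 peaks overlapped a replicate 2 peak. Within 25 of the 27 shared peaks the replicate peaks overlapped each other, and in the other 2, at SEMA3C and SEMA5A, they did not. Over all shared peaks the share was 94.6%.

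In fold and width the shared peaks of the family lay close to other shared peaks near genes, and in −log10 q they lay lower. Their fold ran from 2.77 to 4.13 with a median of 3.42, against 3.47 for all 3244 shared peaks with a protein-coding gene within 100 kb. Their −log10 q had a median of 3.10 against 3.44, and ran from 2.05 to 6.13. A −log10 q of 3 was reached by 15 of the 27 (55.6%) against 68.2%, and 5 by 1 (3.7%) against 14.9%. Within the whole shared list the median −log10 q stood at percentile 29.1, against 41.4. Median width was 1047 bp against 992. By fold rank the median replicate peak stood at percentile 78.3 of the replicate 1 list and 66.2 of the replicate 2 list, against 74.2 and 69.5 for the same 3244 peaks. The peaks of the family lay inside a gene body in 20 of 27 cases (74.1%), against 56.9%. That comparison was not matched for gene length. Of the 27, 23 lay at genes over 150 kb, and 14 at SEMA5A and SEMA3C. In 19 of 27 the fold lay above the median of both replicate lists. The same count was not made for the 3244 peaks, whose median percentiles of 74.2 and 69.5 also lay above both list medians.

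**Figure D4:**
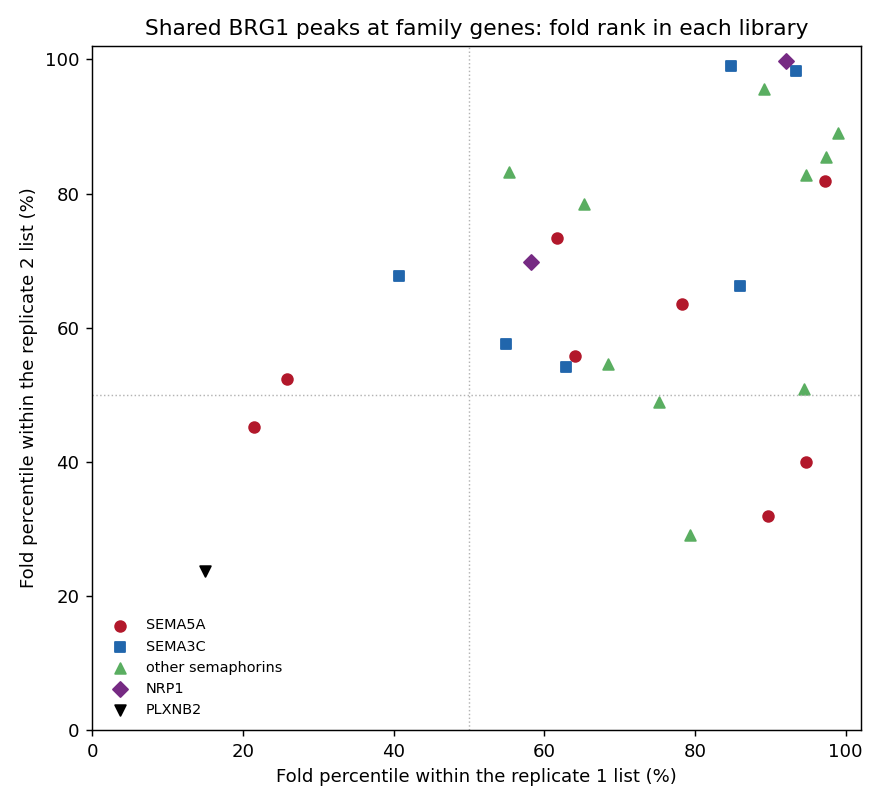
Fold percentile of the replicate 1 peak (horizontal axis) and the replicate 2 peak (vertical axis) under each of the 27 shared peaks, each ranked within its own list. Dotted lines mark the medians of the lists. The NRP1 peak at percentile 99.8 of replicate 2 is the highest, the PLXNB2 peak is below percentile 24 in both lists, and SEMA5A peaks spread from percentile 21.5 to 97.2 in replicate 1.

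Genes that act below or beside the plexins were taken as a list of 50, made of intracellular effectors and of co-receptors or alternative receptors. Of these, 10 (20.0%) had a shared peak, against the background of 9.67%, by role 8 of 35 effectors and 2 of 15 receptors. Among the 10, MICAL2, MICAL3 and FYN have bodies over 150 kb, where 28.7% of all genes had a shared peak. DPYSL2, DPYSL3, LIMK2, MET and ITGB1 are of 50 to 150 kb (14.5% of all genes), and MICALL2 and RND3 are shorter. FARP1, ARHGEF12, TIAM1, PAK1, GSK3B, RAP1A, CHL1, NRCAM, FLT1 and ITGA1 of the list are also over 150 kb and had no shared peak. The part of gene length in this count was not tested. The most shared peaks were at MICAL2, which encodes an actin-oxidising enzyme related to the plexin effector MICAL1. It had 8 shared peaks, 6 of them in its body, the one of highest fold at chr11:12180567-12181541 (fold 3.73, with 4.20 in replicate 1 and 4.12 in replicate 2). MICAL3 had 2 in its body, the higher at chr22:17922964-17923597 (fold 4.33). MET, the hepatocyte growth factor receptor, which can associate with plexins, had 3 in its body, the highest at chr7:116705476-116707241 (fold 3.90). DPYSL2, a collapsin response mediator of SEMA3A signalling, had 2 shared peaks, the higher of fold 3.70. FYN, a kinase acting below plexin A receptors, also had 2, the higher of fold 3.52. ITGB1, the integrin subunit through which SEMA7A can signal, neighbours NRP1. Its 2 shared peaks both lay between these genes, the higher at chr10:33004911-33006077 (fold 4.90).

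Other guidance families also had members with shared peaks. Of 42 ephrin, Eph, slit, roundabout and netrin pathway genes, 8 (19.0%) had a shared peak, against the background of 9.67%. Of these 8, EFNA5, EPHA5, EPHB2, SLIT2 and SLIT3 have bodies over 150 kb, a class in which 28.7% of all genes had one. NTN4 and UNC5A are of 50 to 150 kb (14.5% of all genes), and EPHA2 is shorter. EPHA3, EPHA4, EPHA6, EPHA7, EPHB1, SLIT1, ROBO1 and ROBO2 are also over 150 kb and had no shared peak. The same holds for NTN1, NTNG1, DCC, NEO1, UNC5C, UNC5D and DSCAM. The list was not matched for gene length, and the part of length in this count was not tested. SLIT3 had 3 shared peaks, the highest at fold 3.99. EFNA5, an ephrin, had 3, the highest at 3.78. EPHA2, an Eph receptor of epithelial cells, had 3, of which 2 lay outside the body and the highest had a fold of 3.72. NTN4, which encodes a basement membrane netrin, had 2, the higher at chr12:95649321-95649655 (fold 4.58). SLIT2 had 2, both outside its body (highest fold 3.64), and EPHB2 had 1 (fold 3.63). The 4 roundabout genes, receptors of slits, had no shared peak, but 4 genes are too few to set against the background. ROBO1 and ROBO4 each had 1 peak in replicate 1 alone.

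Peaks do not measure expression, so the labelled cell type could not be checked against marker levels. Against the background of 9.67% of all genes, shared peaks were found at 3 of 6 epithelial markers (KRT7, KRT8 and KRT18, but not KRT19, CDH1 or EPCAM) and 3 of 5 mesenchymal or stromal markers (FN1, THY1 and PDGFRB). They were also found at 1 of 4 neuronal markers, SNAP25, and at 0 of 3 endothelial or immune markers. With so few genes per list these counts are a description.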

How the data were processed

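BRG1 occupancy in wild-type 12Z cells was analysed from 3 deposited broad peak lists, 1 per replicate and 1 overlap list (shared peaks). The submitters' processing notes name MACS2, bedtools, Bowtie2, cutadapt, Picard, SAMtools and Trim Galore, with build GRCh38.p12. Tool versions, settings and any pooling of reads for the overlap list are not stated in the labels used. The authors' lists give per peak a fold enrichment over background, which is a ratio, plus −log10 values for its p-value and its q-value. The authors' whole-number score per peak, as deposited, was left out. Depth is unknown, since no counts are given.

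Peaks were assigned to genes with Python 3.11.15, numpy 2.4.6 and pandas 2.3.3, checked on simulated peaks against bedtools 2.31.1. Coordinates of peaks are the authors' (GRCh38.p12), counted from 1. Gene names and neighbourhoods come from RefSeq GRCh38.p14, a patch release with the same primary chromosomes. All 141 list entries matched. The 250 bases before starts come from RefSeq, and the 50 bases after a start were not used. Replicate values under a shared peak are those of the overlapping peak (1 bp or more) with the highest −log10 q. Members and lists were chosen with earlier results of these data known, and no test was made. Named genes are all members, with at most 6 peaks per gene in full where more were found, and up to 6 genes per other list, by number of shared peaks and then fold. The seventh and eighth SEMA5A peaks and the roundabout genes were named beyond that rule after their values were seen.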

Additional observations from a re-analysis of the deposited data

How the results depend on the processing

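The counts of genes with a peak kept within 1.5 times of their main value with gene bodies only, within 50 kb and, for the family, within 250 kb and with any overlap of peak and body. Without replicate 1 or without replicate 2, family genes with a peak numbered 12 to 16, their peaks 32 to 65, pathway genes 13 to 24 and other guidance genes 9 to 15. The background was then 11.5% of all genes without replicate 1 and 20.2% without replicate 2. With a −log10 q of 3 or more, family peaks fell from 27 to 15 at 9 genes. With 5 or more, 1 peak at 1 gene (SEMA5A) was left, with 3 pathway and 3 other guidance genes, while the background fell from 9.67% to 2.12%. Requiring 50% of both peaks in each replicate left 4 peaks at 3 genes (SEMA3A, SEMA4B and SEMA5A; background 3.1%). Shared peaks are wider than replicate peaks, with medians of 926 bp against 355 and 322, which limits that setting by construction. It also lowered the share of replicate 1 peaks found in replicate 2 from 40.0% to 10.8%, and of replicate 2 peaks in replicate 1 from 87.5% to 21.9%. For peaks near any gene these shares went from 33.0% to 14.4% and from 74.1% to 31.6%, so the family lay above them at any overlap and below them at 50%. Among the stronger replicate 1 peaks (−log10 q at least 3) the share was 90.9%, or 10 of 11 (63.2% near any gene), and 27.3% at 50% overlap (35.7%). Of the stronger replicate 2 peaks, 4 of 4 were found in replicate 1 (93.6% near any gene), but 0 of 4 at 50% overlap (47.9%). The family's shared peaks stood at a median percentile of 58.5 by fold and 29.1 by −log10 q. The causes were not tested. No paired analysis was possible because there is 1 condition and no test between groups.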

Other observations

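Other shared peaks lay beyond the 100 kb limit. Extending it to 250 kb added 5, at 128 to 228 kb from the body, of which 2 were nearest SEMA5A, 2 SEMA3A and 1 SEMA3C, and no further gene of the family. The farther one at SEMA5A, chr5:8828683-8830720, 205 kb past its 3′ end, had a fold of 5.45 in the shared list (percentile 99.9), 5.90 in replicate 1 and 5.43 in replicate 2. It exceeded each of the 27 family peaks in the shared list, whose highest fold was 4.13, and its −log10 q was 10.7. The other at SEMA5A, chr5:8906712-8908061, had a fold of 3.20. Those at SEMA3A, chr7:84637654-84639156 and chr7:84720301-84720986, had folds of 3.71 and 3.64, and the one at SEMA3C, chr7:81111261-81112073, had 3.71. All 27 shared peaks inside the limit lay within 50 kb of the body.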
